A study of Homo sapiens with 4 samples.

Results

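The genes described here are the 4 partners of the gene fusions BCR-ABL1 and NUP214-XKR3 of K562, an established human chronic myeloid leukaemia line. BCR, ABL1, NUP214 and XKR3 were taken by symbol from a table of 60279 human genes, by a rule that uses no measured value. All 4 had enough reads to be tested and all 4 have a deposited production rate. The assay was TT-seq (transient transcriptome sequencing): the nucleoside 4-thiouridine enters RNA while it is made, and this labelled RNA is biotinylated at its thiol groups and enriched. The K562 cells, marked UT in the labels with no other agent named, received 1 mM 4-thiouridine for 5 min or for 15 min, and each label time has 2 libraries. Into 150 µg of RNA from every sample, 15 µg of RNA from Drosophila S2 cells was mixed before enrichment, so that fly reads give a scale shared by the libraries. All groups are 1 cell line without a fusion-negative comparison, and the libraries are not said to come from separate cultures, so p-values rest on the spread among these libraries alone, and that spread may be technical. In bulk RNA, a smaller share of cells that transcribe a gene and less RNA per cell cannot be told apart.

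BCR-ABL1 arises when the Philadelphia translocation joins the 5′ part of BCR, from chromosome 22, to most of ABL1, from chromosome 9. The fused gene is transcribed from the BCR promoter, and its protein is a constitutively active tyrosine kinase that drives chronic myeloid leukaemia and is the target of imatinib. In NUP214-XKR3, also an exchange between chromosomes 9 and 22, NUP214 gives the 5′ end and XKR3 the 3′ end. A gene's count holds reads of fused and unfused copies together, and reads across the joints are not analysed here, so every level below is that of the whole gene.

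The joint of BCR-ABL1 is shown because it sets which stretch of each gene belongs to the fused RNA. In K562 the joint is known to lie between exon 14 of BCR and exon 2 of ABL1. The sequences below are the last 60 bases of that BCR exon (chr22:23290354-23290413, plus strand) and the first 60 bases of that ABL1 exon (chr9:130854064-130854123, plus strand), from the GENCODE 29 transcripts on GRCh38. Capitals mark the 10 bases that meet in the fused RNA.
BCR exon 14, end: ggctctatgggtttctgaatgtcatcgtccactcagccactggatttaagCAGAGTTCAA
ABL1 exon 2, start: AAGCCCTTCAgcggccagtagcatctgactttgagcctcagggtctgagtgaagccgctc
Of the 7.082 kb of the main BCR transcript, with 23 exons, 3.533 kb (49.9%) lie before the joint. Of the 5.766 kb of the main ABL1 transcript, with 11 exons, 5.306 kb (92.0%) lie after it. Dividing the coding bases ahead of the joint by 3 leaves a remainder of 1 in both genes, so the reading phase is the same on both sides.

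Start regions of NUP214 and XKR3 are shown because these partners had the most and the fewest reads. In the fused RNA NUP214 gives the 5′ end, so counted XKR3 RNA need not start at an XKR3 window. The part of these windows in the levels was not tested. RefSeq lists 2 starts for each, and the files do not tell which is used in K562. Each sequence is the 250 bases ahead of the start nearest to the GENCODE gene start, on GRCh38.p14, for NUP214 on the plus strand (chr9:131125336-131125585) and for XKR3 on the minus strand (chr22:16821700-16821949). Capitals mark matches, on either strand, to the CCAAT box (CCAAT), the TATA box (TATAAA) or the GC box (GGGCGG), which do not overlap here.
NUP214 start region: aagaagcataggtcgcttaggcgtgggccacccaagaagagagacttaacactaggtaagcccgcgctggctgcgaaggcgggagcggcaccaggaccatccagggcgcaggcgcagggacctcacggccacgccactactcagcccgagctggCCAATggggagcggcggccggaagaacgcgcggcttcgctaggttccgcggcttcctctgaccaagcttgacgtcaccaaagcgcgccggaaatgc
XKR3 start region: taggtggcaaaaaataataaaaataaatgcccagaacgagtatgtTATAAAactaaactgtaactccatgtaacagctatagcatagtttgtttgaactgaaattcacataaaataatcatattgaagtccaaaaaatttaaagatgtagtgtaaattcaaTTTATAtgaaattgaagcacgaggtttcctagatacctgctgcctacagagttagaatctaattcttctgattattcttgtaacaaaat
The NUP214 window holds 25 CpG dinucleotides and is 65.2% G and C, and has 1 CCAAT match. The XKR3 window holds 2 CpG dinucleotides and is 28.8% G and C, with 2 TATA matches. The windows of the other starts differ from these. The other XKR3 window holds 3 CpG dinucleotides, is 42.8% G and C and has no TATA match, and the other NUP214 window, 64578 bases inside the gene, holds 2 CpG dinucleotides and is 37.6% G and C. Over all 35116 RefSeq windows of this length the medians were 11 CpG dinucleotides and 58% G and C. Of these windows, 32% hold a CCAAT match, 10.7% a TATA match and 42.6% a GC box. The RefSeq windows of BCR and ABL1 lie inside the GENCODE genes and overlap annotated 5′ exons, so they are not set beside these. A match is a description of letters, not a binding site.

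The libraries held 4339981 to 5051370 human reads and 308978 to 897018 fly reads, with 4.838 and 5.841 human reads per fly read after 5 min and 15.85 and 15.3 after 15 min. All 12 K562 markers, such as GATA1, an erythroid transcription factor, and the fetal globin HBG2, were detected, with a summed level of 2994 to 3168 CPM (counts per 1000000 human reads) after 5 min and 2334 to 2388 CPM after 15 min. CDKN2A and CDKN2B, known to be deleted in K562, had no read in any library, and a count of 0 allows up to 3 reads, or 0.594 to 0.691 CPM. The 4 B cell markers summed to 10.49 to 11 CPM after 15 min and 2.556 to 4.608 CPM after 5 min. MS4A1 was the 1 of these 4 at 0 in every library, so the sum comes from the other markers. The 5 T cell markers summed to 12.08 to 13.54 CPM after 15 min and 15.97 to 18.43 CPM after 5 min. The 4 fibroblast markers gave 0.7919 to 1.481 CPM and 2.535 to 2.556 CPM, and the 4 monocyte markers 22.64 to 22.96 CPM and 21.2 to 21.94 CPM, in the same order. The 4 epithelial markers summed to 84.73 to 91.61 CPM after 15 min and 149.8 to 155.3 CPM after 5 min, almost all from KRT19 and EPCAM, while KRT5 was at 0 in every library. Of 5 testis markers, listed because XKR3 is known from testis, DAZL, DDX4, TNP1 and PRM1 had no read and SYCP3 gave 31.52 to 47.18 CPM. The part of these markers in the results was not tested.

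BCR (ENSG00000186716, chr22:23179704-23318037, plus strand), which encodes a protein with kinase, RhoGEF and RacGAP activity, spans 138.3 kb with 12.39 kb of annotated exon. Its reads were 1575 and 1551 after 15 min (replicates 1 and 2) and 1186 and 1330 after 5 min. Per exonic kb and per 1000 fly reads, the scale used for levels between genes, BCR stood at 0.3989 and 0.4052 after 15 min and at 0.1067 and 0.1335 after 5 min. Both 15 min libraries were above both 5 min libraries. The accumulation of BCR, the fold change of reads per fly read tested with edgeR, was 3.348-fold (log2 1.74, SE 0.17, adjusted p 2.05e-23). Accumulation was called higher for 98.4% and lower for 0.0115% of the 17322 tested genes, with a median of 3.197-fold, so the rise of a member is read against that background. Its fold ranked at percentile 55.8 of all tested genes. The label times themselves differ 3-fold.

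ABL1 (ENSG00000097007, chr9:130713946-130887675, plus strand), the tyrosine kinase partner, spans 173.7 kb with 6.276 kb of annotated exon. Its reads were 1044 and 969 after 15 min and 1133 and 1292 after 5 min. Its level per exonic kb per 1000 fly reads was 0.5219 and 0.4997 after 15 min and 0.2013 and 0.2561 after 5 min. Its raw reads were thus fewer in both 15 min libraries than in both 5 min libraries, while its level per fly read was higher in both. ABL1 accumulated 2.235-fold (log2 1.16, SE 0.17, adjusted p 7.86e-12), the smallest rise of the 4 members and at percentile 13.5 of tested genes.

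NUP214 (ENSG00000126883, chr9:131125561-131234670, plus strand), a nucleoporin of the cytoplasmic face of the nuclear pore that takes part in mRNA and protein export, spans 109.1 kb with 13.06 kb of annotated exon. It was the most read of the 4 partners, with 5915 and 5413 reads after 15 min and 4743 and 4932 after 5 min. Per exonic kb per 1000 fly reads it stood at 1.421 and 1.341 after 15 min and at 0.4048 and 0.4697 after 5 min. The label times did not overlap. NUP214 accumulated 3.159-fold (log2 1.66, SE 0.18, adjusted p 1.15e-18), at percentile 48.3 of tested genes and close to the median of all of them.

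XKR3 (ENSG00000172967, chr22:16783412-16821699, minus strand), a member of the XK family of membrane proteins, spans 38.29 kb with 4 exons and 1.69 kb of annotated exon. It had the fewest reads, 196 and 172 after 15 min and 180 and 177 after 5 min. Its level per exonic kb per 1000 fly reads was 0.3639 and 0.3294 after 15 min and 0.1187 and 0.1303 after 5 min. These levels did not overlap between label times, whereas the raw reads did. XKR3 accumulated 2.786-fold (log2 1.48, SE 0.19, adjusted p 5.9e-15), at percentile 33.2.

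**Figure D1:**
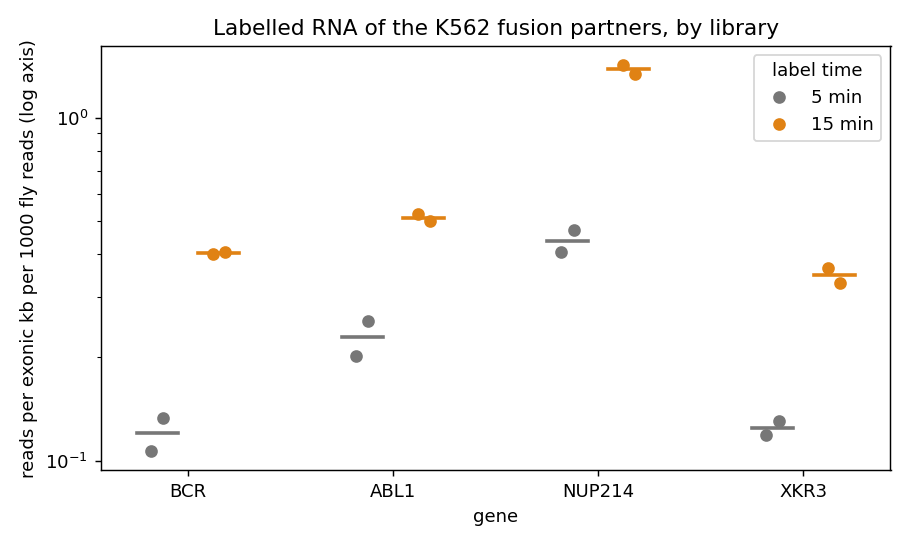
Reads per exonic kb per 1000 fly reads (log axis) for each gene, with 1 point per library (grey 5 min, orange 15 min) and a bar at the mean of 2. NUP214 is highest at both label times, and in each gene both 15 min points lie above both 5 min points.

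Ordered by the mean level per exonic kb per 1000 fly reads after 15 min, the members were NUP214 at 1.381 ± 0.0563 (SD, n = 2), ABL1 at 0.5108 ± 0.0157, BCR at 0.402 ± 0.00445 and XKR3 at 0.3466 ± 0.0244. After 15 min no neighbours in that order overlapped between their libraries. After 5 min the means were 0.4372 ± 0.0459 for NUP214, 0.2287 ± 0.0388 for ABL1, 0.1201 ± 0.019 for BCR and 0.1245 ± 0.00816 for XKR3. BCR and XKR3 then overlapped, since the 5 min BCR libraries lay on either side of the XKR3 libraries. The order of ABL1 and BCR depended on the length used. Per kb of the main coding transcript, BCR stood at 0.6978 and 0.7088 after 15 min, above ABL1 at 0.5681 and 0.5439. On the same scale after 5 min, BCR at 0.1867 and 0.2336 overlapped with ABL1 at 0.2191 and 0.2787. By CPM averaged over the libraries, NUP214 ranked at percentile 99.8 of tested genes, BCR at 97.2, ABL1 at 96 and XKR3 at 64.4. Per kb of annotated exon, XKR3 ranked at percentile 83.3, BCR at 85.8, ABL1 at 91.7 and NUP214 at 98. The counting feature is not given, so annotated exon need not be the fitting length. Per kb of gene span after 15 min, NUP214 stood at 0.1701 and 0.1606 and BCR at 0.03572 and 0.03629. On that scale ABL1 stood at 0.01886 and 0.01805 and XKR3 at 0.01606 and 0.01454.

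**Figure D2:**
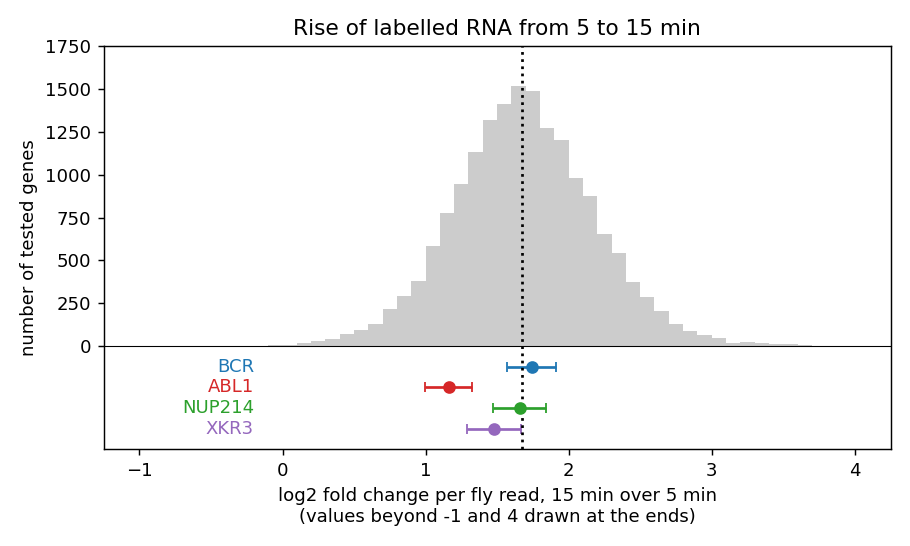
Number of tested genes (vertical axis) by log2 fold change of reads per fly read, 15 min over 5 min (grey bars), with the 4 members below as points with SE. The dotted line is the median of all tested genes, 1.68. ABL1 at 1.16 lies to the left of the line by more than its SE, and BCR at 1.74 and NUP214 at 1.66 lie next to it.

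Since nearly all genes rose per fly read, a second test asked which genes changed against the typical human gene. It used edgeR with TMM factors and without the fly reads, and its result is called share. Share is thus not the part of all human reads, which CPM and the fit with library totals give. ABL1 was the 1 member of 4 that passed in share, and it fell. Over all tested genes 38.1% passed in share, 21.3% of all lower and 16.8% higher, with a median of 0.03 (log2). ABL1 stood at 206.7 and 205 CPM after 15 min and at 261.1 and 275.2 CPM after 5 min. The label times did not overlap, and the log2 change of its share was -0.48 (SE 0.06, adjusted p 8.51e-13, fold 0.7147). BCR stood at 311.8 and 328.2 CPM after 15 min and at 273.3 and 283.3 CPM after 5 min. Its values lay in the opposite order and its share did not pass the test (log2 0.10, SE 0.06, adjusted p 0.207). With library totals in place of TMM factors, as in CPM, BCR was called higher (log2 0.20, adjusted p 0.00405). This scaling moves the median of all genes to 0.13. NUP214 stood at 1171 and 1145 CPM after 15 min and at 1093 and 1050 CPM after 5 min. It also missed the threshold in share (log2 0.01, adjusted p 0.922), and the sign of this value changed with the scaling. With library totals NUP214 was at log2 0.11 (adjusted p 0.125). XKR3, at 38.8 and 36.39 CPM after 15 min and 41.47 and 37.7 CPM after 5 min, overlapped between label times (log2 -0.17, SE 0.12, adjusted p 0.263). The direction of ABL1 was the same under each of the 9 alternatives run.

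The members differ in length, so genes of like span were set beside them. Among the 1317 tested protein-coding genes that span 100 to 200 kb, as BCR, ABL1 and NUP214 do, the median accumulation was 2.784-fold, and 37.4% were lower and 5.62% higher in share. For the 5183 protein-coding genes that span 10 to 50 kb, as XKR3 does, the median was 2.941-fold, and 31.1% were lower and 14.3% higher in share. ABL1 lay below the median of its length class, and BCR and NUP214 lay above it. The part of gene length in these values was not tested.

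Ratios of members within a library need neither the fly reads nor the library total. There were 0.6629 and 0.6248 ABL1 reads per BCR read after 15 min and 0.9553 and 0.9714 after 5 min. Expressed as ABL1 reads among ABL1 and BCR reads, the 15 min libraries gave 39.86% (95% Clopper-Pearson interval 37.98 to 41.77%) and 38.45% (36.55 to 40.38%), and the 5 min libraries 48.86% (46.8 to 50.91%) and 49.28% (47.34 to 51.21%). In raw reads, not divided by length, the partners of BCR-ABL1 were thus about equal after 5 min, and ABL1 was below BCR after 15 min. The intervals, which cover counting error only, do not overlap between label times. Per exonic kb, ABL1 stood at 1.308 and 1.233 of BCR after 15 min and at 1.886 and 1.918 after 5 min. Per kb of gene span it stood at 0.5278 and 0.4975 after 15 min and at 0.7607 and 0.7735 after 5 min. The log2 change of the ratio, which no choice of length alters, was -0.58 ± 0.06 (SD of the difference) after 15 min against 5 min, a fold of 0.668. The two-sided exact permutation p was 0.333, the smallest that 2 libraries against 2 allow, so this test cannot reach 0.05.

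For the partners of NUP214-XKR3 the ratio was lower in both 15 min libraries. XKR3 gave 0.03314 and 0.03178 reads per NUP214 read after 15 min and 0.03795 and 0.03589 after 5 min, a log2 change of -0.19 ± 0.07 (exact permutation p 0.333). As percent of the reads of both genes this was 3.207% (2.78 to 3.68%) and 3.08% (2.642 to 3.567%) after 15 min, and 3.656% (3.15 to 4.219%) and 3.464% (2.98 to 4.003%) after 5 min. These intervals overlap, so the shift was not resolved from counting error in single libraries. Per exonic kb, XKR3 stood at 0.2561 and 0.2456 of NUP214 after 15 min and at 0.2933 and 0.2774 after 5 min.

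Across the fusions, the partners that give the 5′ ends, NUP214 and BCR, had ratios that overlapped between label times. NUP214 gave 3.756 and 3.49 reads per BCR read after 15 min and 3.999 and 3.708 after 5 min (log2 -0.09 ± 0.11, exact permutation p 0.667). NUP214 gave 5.666 and 5.586 reads per ABL1 read after 15 min and 4.186 and 3.817 after 5 min (log2 0.49 ± 0.10, exact permutation p 0.333). XKR3 gave 0.1877 and 0.1775 reads per ABL1 read after 15 min and 0.1589 and 0.137 after 5 min. Both ratios with ABL1 in the denominator were higher in both 15 min libraries. XKR3 per BCR read was 0.1244 and 0.1109 after 15 min and 0.1518 and 0.1331 after 5 min, lower in both 15 min libraries (log2 -0.27 ± 0.18). With 6 ratios and a smallest p of 0.333, none passes any adjustment.

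**Figure D3:**
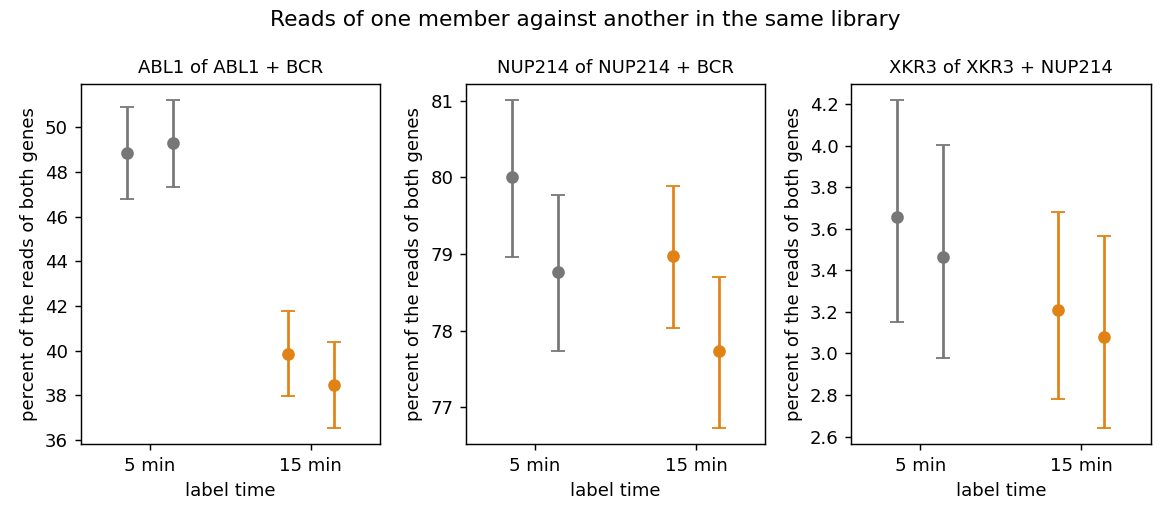
Reads of one member as percent of the reads of both, for 3 pairs, with 1 point per library (grey 5 min, orange 15 min) and 95% Clopper-Pearson intervals. The vertical axes do not start at 0 and differ between panels. ABL1 goes from 48.86 and 49.28% of ABL1 and BCR reads after 5 min to 39.86 and 38.45% after 15 min. The XKR3 and NUP214 intervals all overlap between label times, and of the NUP214 and BCR intervals those of 15 min replicate 2 and 5 min replicate 1 do not.

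Other annotated genes overlap the members, and no source used here gives the feature or strand used in counting, so the counts of these genes and of their hosts are uncertain. FBXW4P1, a processed pseudogene inside an intron of BCR on the same strand, had 848 and 710 reads after 15 min and 370 and 334 after 5 min, or 0.5384 and 0.4578 per BCR read against 0.312 and 0.2511. Its share rose (log2 0.93, SE 0.08, adjusted p 1.18e-30), which BCR's did not. RN7SL263P, on the opposite strand of BCR, had 132, 115, 63 and 72 reads in the same library order and also rose in share (log2 0.65, adjusted p 0.000422). In NUP214, the antisense gene AL157938.2 shares 2986 bases with NUP214 exons and had 1308 and 1171 reads after 15 min and 801 and 803 after 5 min. Its share rose (log2 0.41, SE 0.07, adjusted p 5.2e-09). A further antisense gene, AL157938.3, shares 529 bases with NUP214 exons and did not pass (log2 -0.04, adjusted p 0.718). The gene inside ABL1, AL359092.1, had 2 to 7 reads per library, and no annotated gene overlaps XKR3. The 9 annotated BCR pseudogenes together gave 1.065 to 2.304 CPM, and 6 of them had no read. Among them BCRP8 lies inside BCR on the opposite strand, so its count is uncertain too. It had 7 and 7 reads after 15 min and 5 and 1 after 5 min.

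The surroundings of the members differed in how much else was read. Within 400 kb on each side of its centre, BCR held 67.4% of the reads of all annotated genes, and 44 of 48 other genes there, immunoglobulin lambda segments among them, had under 10 reads in the 4 libraries together. XKR3 held 8.2% of the reads in its window. In order of their centres, the next gene toward lower coordinates and the next 16 toward higher coordinates, 17 in all, had no read in any library. They include GAB4, a protein-coding gene, and pseudogenes. The nearest genes with a read have their centres 105.3 kb and 246.1 kb from that of XKR3. Between ABL1 and NUP214 lie 6 annotated genes. FIBCD1 and LAMC3 had at most 2 reads in any library, while QRFP, a neuropeptide gene next to ABL1, had 108 and 89 reads after 15 min and 74 and 64 after 5 min. QRFP accumulated 3.86-fold and AIF1L, next to NUP214, 3.145-fold, and neither passed in share (adjusted p 0.17 and 0.989). EXOSC2, an exosome subunit gene just before ABL1, rose in share (log2 0.46, SE 0.07, adjusted p 6.78e-09) where ABL1 fell. FAM78A, just after NUP214, did not pass (log2 -0.05, adjusted p 0.541).

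**Figure D4:**
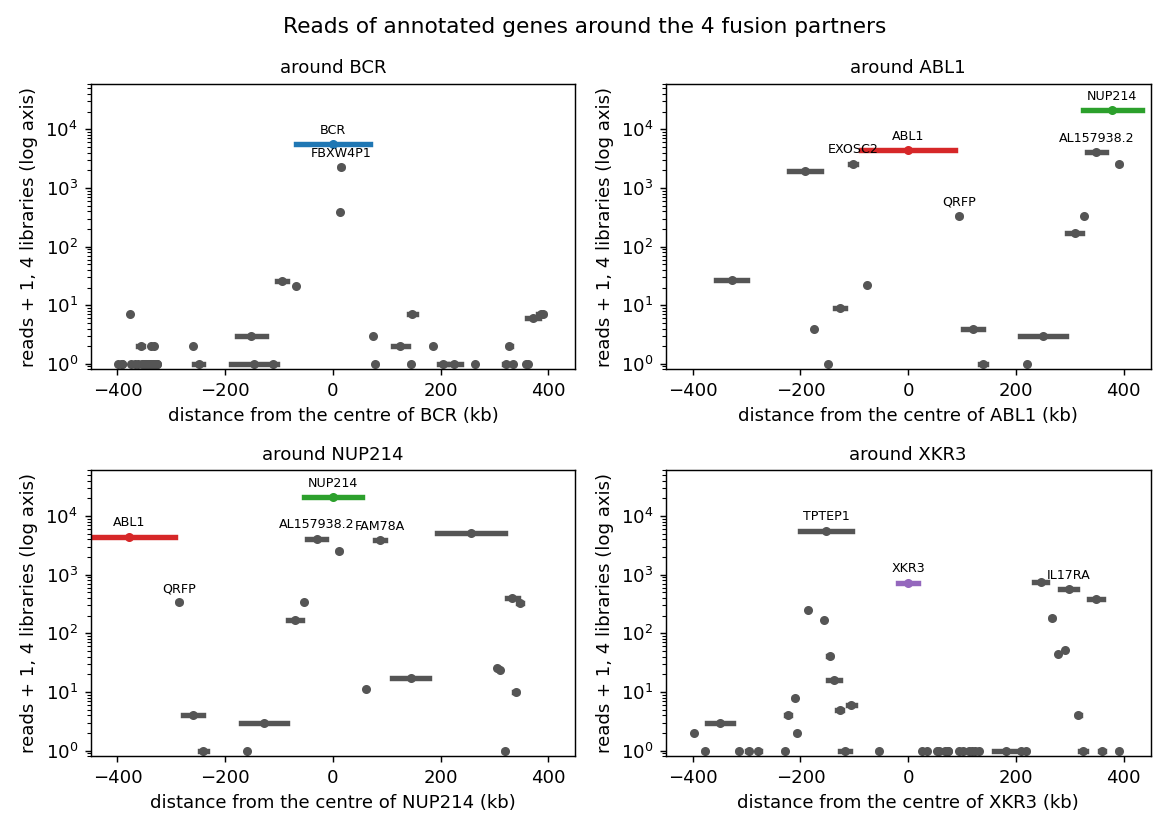
Reads + 1 over the 4 libraries (log axis) for annotated genes within 400 kb of the centre of each member (horizontal axis, kb), with bars for gene spans and coloured bars for the members. XKR3 stands among genes at 0 reads on both sides, and ABL1 and NUP214 appear in each other's windows.

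On chromosome 22, the stretch from XKR3 to BCR holds 377 genes of the table, of which 206 had no read and 98 were tested. All 98 rose per fly read, with a median of 3.836-fold, against 98.4% higher and a median of 3.197-fold over all tested genes. In share 39 were higher and 17 lower (median log2 0.29), against 21.3% lower and 16.8% higher over all tested genes (median log2 0.03). DESeq2 called 21 higher and 12 lower, against 923 higher and 2370 lower of all 17322 tested genes. PRAME, a cancer-testis antigen gene and the nearest tested coding gene before BCR, had 7670 and 7401 reads after 15 min and 5958 and 6210 after 5 min. Its share did not pass (log2 0.09, adjusted p 0.245) and, like that of BCR, was called higher with library totals (log2 0.20, adjusted p 0.00588). RGL4, the nearest tested coding gene after BCR, had 69 and 58 reads after 15 min and 31 and 48 after 5 min and did not pass in share (adjusted p 0.076, and 0.0254 with library totals). IL17RA, a cytokine receptor gene and the nearest tested coding gene beyond XKR3 at higher coordinates, accumulated 3.252-fold and did not pass in share (adjusted p 0.813).

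The authors' deposited table gives 1 production rate per gene without a stated unit or replicate. The rates of the members were 0.08109 for NUP214, 0.0599 for BCR, 0.05457 for ABL1 and 0.04483 for XKR3. Against the median of 0.01144 over 11777 genes these are 7.088, 5.236, 4.77 and 3.919 times as high, at percentiles 95.6, 92.6, 91.4 and 88.4. The order of the rates is NUP214, BCR, ABL1, XKR3, so that BCR stands above ABL1 although ABL1 had the higher level per exonic kb. Per kb of gene span BCR had the higher mean level, at 0.03601 against 0.01845 after 15 min and 0.01076 against 0.008261 after 5 min. Across 10737 genes, which are not independent replicates, the rate had a Spearman correlation of 0.89 with the 5 min level per exonic kb and of 0.778 with the 5 min reads per gene. No source used here names the libraries behind the rates, so rate and level may share reads.

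**Figure D5:**
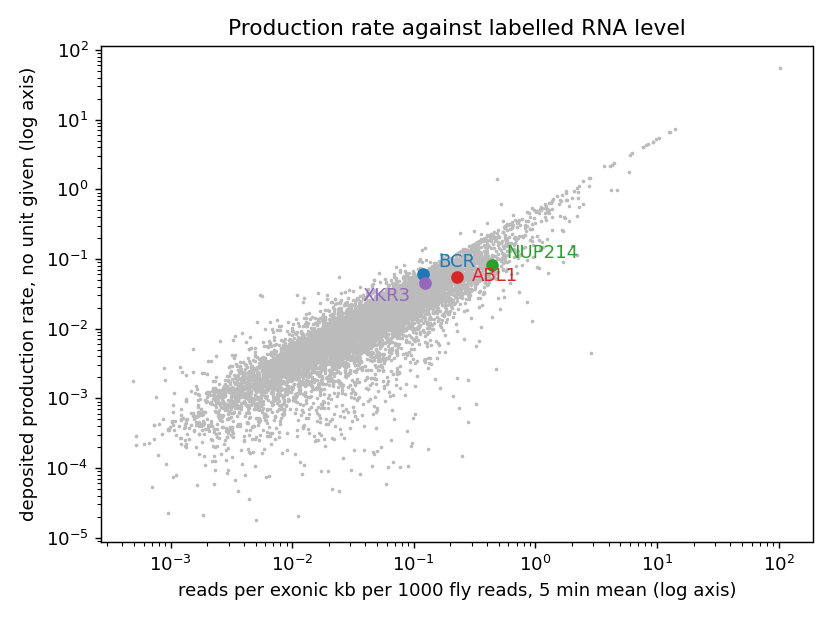
Deposited production rate (no unit given, log axis) against the mean level after 5 min in reads per exonic kb per 1000 fly reads (log axis), with 1 grey point per gene. The members lie within the cloud of genes, BCR and XKR3 toward its upper edge and ABL1 and NUP214 further right.

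Protein-coding genes most like each member in level and change were found by the Euclidean distance over the log2 level per exonic kb per 1000 fly reads in the 4 libraries, among 9759 genes. For BCR they were NOM1, LATS1 and SF3B4, at distances of 0.0533 to 0.0781. For ABL1 they were CS, TYMS and C1orf43, at 0.0191 to 0.053. For XKR3 they were KMT5A, TMEM203 and TSR1, at 0.00598 to 0.0646. NUP214 had more distant neighbours, PNRC2, MCL1 and SRSF6, at 0.0867 to 0.174. The distance did not use the deposited rates, though these may share reads with the levels. They were 0.03393 for CS, 0.04241 for TYMS and 0.04615 for C1orf43, all under that of ABL1. The rates of PNRC2 (0.2026), MCL1 (0.2207) and SRSF6 (0.1834) were all above that of NUP214. For BCR, NOM1 (0.05312) and LATS1 (0.04517) lay under its rate and SF3B4 (0.06059) above it. For XKR3, KMT5A (0.04332) and TSR1 (0.03871) lay under its rate and TMEM203 (0.06538) above it.

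Genes that work with the members were read from fixed lists. Of 37 genes whose proteins bind BCR-ABL1 or act directly below it, 32 were tested. All 32 rose per fly read, against 98.4% of all tested genes. Their median was 2.564-fold, against 3.197-fold over all tested genes. In share 17 were lower and 3 higher (median log2 -0.29), against 21.3% lower and 16.8% higher over all tested genes. Over tested protein-coding genes, the type of all in this list, 30.5% were lower and 13.7% higher (medians 2.956-fold and log2 -0.085). DESeq2 called 12 lower and 0 higher (16 and 2 at an unadjusted p under 0.05), against 2370 lower and 923 higher of all 17322 tested genes (3034 and 1725 unadjusted). CRKL, an adaptor that is a main substrate of the fused kinase, did not pass in share (log2 -0.01, adjusted p 0.88). STAT5A and STAT5B, transcription factors activated by it, fell (log2 -0.71, SE 0.06, adjusted p 6.1e-29, and log2 -1.01, SE 0.08, adjusted p 2.12e-32). SET, an inhibitor of the phosphatase PP2A that is also a fusion partner of NUP214 in leukaemia, fell as ABL1 did (log2 -0.53, SE 0.06, adjusted p 7.65e-17). All 5 small GTPase genes on which BCR can act were lower in share (median log2 -0.68), against 21.3% of all tested and 30.5% of tested protein-coding genes. Among these 5 were RHOA (log2 -1.35, SE 0.08, adjusted p 1.64e-67), CDC42 (log2 -0.50) and RAC1 (log2 -0.47). RHOA was also the 1 GTPase gene of 5 that did not pass per fly read, at 1.225-fold (adjusted p 0.0791).

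Among 10 relatives of the members, 4 were tested. ABL2, the paralog of ABL1, stood at 145.8 ± 0.923 CPM after 15 min and 138.1 ± 5 CPM after 5 min (SD, n = 2), and its share did not pass (log2 -0.03, SE 0.07, adjusted p 0.813), unlike that of ABL1. ABR, the paralog of BCR, had 69 and 61 reads after 15 min and 27 and 29 after 5 min, and its share rose (log2 0.99, SE 0.24, adjusted p 0.000151). The difference between paralogs was not tested. In the XK family, XK had 81 to 96 reads and XKR8, a phospholipid scramblase gene, 10 to 18 reads per library. XKR4, XKR7 and XKR9 had at most 2 reads per library, and XKRX, XKR5 and XKR6 had none, so that XKR3 was the most read of these family members. Of the 3 partners of XK family proteins all rose per fly read, against 98.4% of all tested genes. BSG (log2 -1.24, SE 0.07, adjusted p 6.24e-67) and VPS13A (log2 -0.63, SE 0.08, adjusted p 1.04e-14) fell in share. Of all tested genes 21.3% were lower, and of tested protein-coding genes 30.5%. NPTN, named here after its value was seen, did not pass (log2 0.21, adjusted p 0.183) but was called higher with library totals.

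The 14 partners of NUP214 at the nuclear pore and in mRNA export were all tested. All rose per fly read, against 98.4% of all tested genes. Their median was 3.041-fold, against 3.197-fold over all tested genes, 2.956-fold over tested protein-coding genes and 3.159-fold for NUP214. In share 5 were lower and 4 higher (median log2 -0.04, and 0.06 with library totals). Over all tested genes 21.3% were lower and 16.8% higher, and over tested protein-coding genes 30.5% and 13.7%. DESeq2 called 4 lower and 0 higher (5 and 2 at an unadjusted p under 0.05). Of all 17322 tested genes it called 2370 lower and 923 higher (3034 and 1725 unadjusted). XPO1, the main nuclear export receptor, fell (log2 -0.34, SE 0.06, adjusted p 2e-07), as did NUP98 (log2 -0.52, adjusted p 1.43e-15) and RANBP2 (log2 -0.45, adjusted p 6.32e-12). DEK, the partner of NUP214 in a leukaemia fusion, fell in share (log2 -0.52, SE 0.06, adjusted p 6.52e-15), and SQSTM1, a further partner named here after its value was seen, rose (log2 0.41, SE 0.07, adjusted p 1.65e-07). DDX19A and DDX19B are near-identical copies, so their counts are uncertain.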

How the data were processed

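The authors deposited raw counts of human genes and of fly genes for 4 libraries, whole numbers that were not normalized, and 1 production rate per gene, a synthesis rate per the file headers, which was taken as a score since no unit or method is stated. STAR 2.7, featureCounts, Subread 2.0.1, edgeR and bcl2fastq 2.17.1.14 are listed in the submitters' processing notes, with the builds hg38 and dm6 and no role or order. Counting feature and strand: not given in the sources used here.

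Positions, symbols and exon lengths came from GENCODE 29, in which 56590 of 60279 gene identifiers were found, and start regions from RefSeq. Tests used edgeR 4.0.16 (filterByExpr with a minimum count of 10, robust quasi-likelihood, label time as the only term) over 17322 genes with Benjamini-Hochberg adjustment at 0.05. Accumulation took fly read totals as library sizes, and share took TMM factors. Fits were tested on simulated data. DESeq2 1.42.0, other scalings, no filter, a replicate block and leaving out each library were the alternatives. Replicates differed beyond sampling noise (chi-square over its degrees of freedom 1.7 for 15 min and 1.55 for 5 min) and counted as separate samples. Genes named were the members, for each list the 2 tested genes with the highest mean CPM and the 2 with the smallest share p, the nearest tested coding genes, and the 3 most alike; other names, such as overlapping genes, GAB4, FIBCD1, LAMC3 and single markers, were chosen after their values were seen. One gene that the rule names is not reported here. The rule for the members uses gene symbols alone, but members and lists were chosen with earlier results of these data known.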

Additional observations from a re-analysis of the deposited data

How the results depend on the processing

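The accumulation of all 4 members kept its direction and its side of the threshold under all 9 alternatives, at 3.01- to 3.766-fold for BCR, 1.995- to 2.538-fold for ABL1, 2.94- to 3.412-fold for NUP214 and 2.646- to 2.923-fold for XKR3. The share of ABL1 stayed called lower under all 9 (log2 -0.56 to -0.38, adjusted p 3.33e-17 to 3.78e-06), and that of XKR3 stayed short of the threshold (adjusted p 0.184 to 0.687). The share of BCR passed under 1 alternative, library totals without TMM factors (log2 0.20, adjusted p 0.00405, against 0.122 to 0.795 under the others), where 60.4% of calls were higher against 44.1% with TMM factors. The share of NUP214, log2 0.0096, changed sign to -0.0016 with DESeq2, to -0.0194 with human median-ratio size factors, to -0.0185 without replicate 1 of 15 min, to -0.0018 without replicate 1 of 5 min and to -0.0193 without replicate 2 of 5 min (0.0064 without replicate 2 of 15 min), and passed under none (adjusted p 0.125 to 0.996).

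Over all genes, DESeq2 called 923 higher and 2370 lower in share, against 2915 and 3692 with edgeR, and its higher calls were 28% of its calls. Leaving out 1 library gave 1729 to 2149 higher calls in share, the fewest being 1795 without replicate 1 of 15 min and 1729 without replicate 2 of 5 min. In accumulation edgeR called 2 genes lower, DESeq2 called 0 (0 at an unadjusted p under 0.05), and leaving out 1 library gave 0 to 1. With 1 library left in a group, that library is assumed to vary like the other group. The causes were not tested. Same-numbered libraries share only a number: the correlation of their deviations was 0.0484. A replicate block gave a share of log2 0.0986 for BCR (adjusted p 0.122), -0.4837 for ABL1, 0.0095 for NUP214 and -0.1764 for XKR3, and accumulation of log2 1.7513, 1.1694, 1.6626 and 1.4778; it changed no call of a member, and gave 3080 higher and 3878 lower calls in share and 16991 higher in accumulation.

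Ratios between members within a library kept their direction whichever library was left out. Per kb their size depended on the length. ABL1 to BCR per exonic kb was 1.271 after 15 min and 1.902 after 5 min, but 0.5126 and 0.7671 per kb of gene span, and 0.7907 and 1.183 per kb of the main coding transcript (chosen after seeing the data). NUP214 to BCR went from 3.436 and 3.655 to 4.593 and 4.886 per kb of span. NUP214 to ABL1 went from 2.703 and 1.923 to 8.958 and 6.372 per kb of span and to 4.268 and 3.036 per kb of transcript. XKR3, with 172 to 196 reads per library, has the largest SE of the members in share, 0.122. Its change of log2 -0.17 did not pass, so a change of that size was not resolved at this depth.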
